A study of Homo sapiens with 36 samples.

Results

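The 41 genes described here encode the carriers and enzymes of glycolysis, the oxygen-sensing factors and enzymes, and known targets of the hypoxia-inducible factors. They were chosen by gene symbol from a named list, drawn up with earlier results of these data known, and all 41 were found among the 57232 genes of the count table. By role they are 4 glucose and lactate carriers, 15 glycolytic enzymes, 7 genes that set the flux of glycolysis or the fate of pyruvate, 4 oxygen-sensing genes and 11 hypoxia targets. Of these, 38 were among the 18696 genes that passed the filter on low counts. PDK4, EGLN3 and CA9 did not pass it and are given as counts only.

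The cells were IMR90 ER:RAS, a line of human fetal lung fibroblasts that carries RAS fused to the hormone-binding part of the oestrogen receptor. Per the labels, all cells were at passage 14 and grew for 6 days in medium with 10% serum, which was changed on day 3, and 100 nM 4OHT (4-hydroxytamoxifen) was given to switch RAS on and bring about senescence. The senescent groups received ouabain, digoxin or vehicle, and the proliferating groups received vehicle without 4OHT. Each of these 4 treatments has 3 libraries in each of 3 arms, which are 16 h, 36 h, and 36 h plus an overnight caspase inhibitor, so there are 12 groups. The labels give no dose for ouabain, digoxin or the inhibitor, no drug was given to proliferating cells, and all groups come from 1 line, so active RAS, senescence and exposure to 4OHT cannot be told apart. Separate cultures are not named in the labels for the 3 libraries of a group, so every p-value reflects library-to-library spread, possibly technical only.

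Glycolysis breaks glucose down to pyruvate in the cytosol and yields ATP without oxygen. Pyruvate is either turned into lactate, which leaves the cell through monocarboxylate carriers, or enters mitochondria through pyruvate dehydrogenase, which the PDK kinases switch off. The hypoxia-inducible factors HIF1A and EPAS1 are hydroxylated by the EGLN enzymes and degraded while oxygen is present, and in its absence they bind a short DNA core in genes of glycolysis and of the response to low oxygen. Oncogenic RAS is known for raising glucose uptake and glycolysis in fibroblasts. Ouabain and digoxin are cardiac glycosides, plant steroids that block the sodium pump of the cell membrane, itself a large consumer of ATP.

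Library totals lay between 10854351 and 21446415 counts. Levels are given as TMM-scaled CPM, and changes as log2 fold changes from 1 edgeR quasi-likelihood model of all 36 libraries, with the standard error (SE) after ±. A gene was called at a Benjamini-Hochberg adjusted p under 0.05 over all 18696 tested genes. The libraries that differed most from the others of their group were replicates 2 and 1 of the proliferating cells at 16 h and replicate 2 of ouabain at 16 h, with median absolute log2 differences of 0.375, 0.274 and 0.271. Mitochondrial ribosomal RNA made up 2.521% of the counts in replicate 2 of the proliferating cells at 16 h. It made up 0.864% and 0.775% in replicates 1 and 3 of that group. HRAS stood at 2454 to 5186 CPM with the drugs, at 1020 to 1357 CPM in senescent vehicle cells and at 412 to 621 CPM in proliferating cells. The 8 senescence markers summed to 4577 to 5737 CPM with the drugs at 16 h and 9885 to 13145 CPM at 36 h. The sum was 2249 to 2792 CPM in senescent vehicle cells at these times, and 650 to 840 CPM in proliferating cells. It mainly follows CXCL8 and CDKN1A, with 1329191 and 1076227 counts over all libraries. The others had fewer, from 299547 for IL1B to 4532 for LMNB1, and all were added with the same sign. The 10 fibroblast markers summed to 4959 to 5752 CPM with either drug at 36 h, to 8740 to 9506 CPM in senescent vehicle cells and with either drug at 16 h, and to 14743 to 17315 CPM in proliferating cells. The 7 leukocyte markers summed to at most 8.83 CPM, CD3E had 1 count in all libraries together, and the epithelial surfactant gene SFTPC had no count in any library. The 7 epithelial markers summed to 24.3 to 64.4 CPM. The endothelial markers summed to 15.4 to 39.7 CPM with the drugs and 6.16 to 8.96 CPM in senescent vehicle cells. In proliferating cells they summed to 11.2 to 18.1 CPM. Over all libraries KDR had 5745 counts, TEK 4236, VWF 702, EMCN 51, CLDN5 30 and CDH5 16. In bulk RNA, fewer cells of a type and less RNA per cell cannot be told apart, and the part of these marker levels in the results was not tested.

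The promoters of 5 members are shown first, because the hypoxia-inducible factors act through a core of 5 bases in such windows. LDHA and BNIP3 held the most cores among the members, and ANKRD37, EGLN1 and ADM are hypoxia targets or sensors that stood higher under both drugs at 36 h. Since ANKRD37, EGLN1 and ADM were picked by that change, the display does not relate cores to the drug response. ALDOC, which held 5 cores and stood lower under both drugs at 36 h, is not shown. Each sequence runs 5′ to 3′ on the strand of the gene, from 250 bases before to 50 bases after its start, as RefSeq gives it on GRCh38.p14. Capitals mark the cores ACGTG and GCGTG and their reverse complements CACGT and CACGC, and in CACGTG a core on each strand overlaps the other. LDHA, on the plus strand at chr11:18394313-18394612, held 6 cores. ANKRD37, on the plus strand at chr4:185396591-185396890, held 3 cores. EGLN1, on the minus strand at chr1:231422238-231422537, held 1 core. BNIP3, on the minus strand at chr10:131981874-131982173, held 6 cores. ADM, on the plus strand at chr11:10304823-10305122, held 1 core.
LDHA: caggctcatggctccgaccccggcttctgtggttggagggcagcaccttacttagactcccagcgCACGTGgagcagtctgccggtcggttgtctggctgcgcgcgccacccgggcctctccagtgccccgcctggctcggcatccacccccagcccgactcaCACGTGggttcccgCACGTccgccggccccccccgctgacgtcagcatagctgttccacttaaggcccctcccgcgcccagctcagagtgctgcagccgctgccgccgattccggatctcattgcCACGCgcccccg
ANKRD37: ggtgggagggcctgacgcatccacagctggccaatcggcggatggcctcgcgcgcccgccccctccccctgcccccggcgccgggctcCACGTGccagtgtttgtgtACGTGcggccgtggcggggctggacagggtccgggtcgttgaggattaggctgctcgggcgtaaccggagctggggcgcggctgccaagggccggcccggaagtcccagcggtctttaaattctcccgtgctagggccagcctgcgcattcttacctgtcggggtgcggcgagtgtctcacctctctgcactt
EGLN1: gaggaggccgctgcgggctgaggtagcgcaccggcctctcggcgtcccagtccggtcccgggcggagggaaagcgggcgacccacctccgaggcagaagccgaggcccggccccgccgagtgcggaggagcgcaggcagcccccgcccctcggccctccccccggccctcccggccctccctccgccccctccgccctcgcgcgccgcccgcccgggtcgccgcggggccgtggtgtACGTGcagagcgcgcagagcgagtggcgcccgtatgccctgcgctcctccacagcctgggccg
BNIP3: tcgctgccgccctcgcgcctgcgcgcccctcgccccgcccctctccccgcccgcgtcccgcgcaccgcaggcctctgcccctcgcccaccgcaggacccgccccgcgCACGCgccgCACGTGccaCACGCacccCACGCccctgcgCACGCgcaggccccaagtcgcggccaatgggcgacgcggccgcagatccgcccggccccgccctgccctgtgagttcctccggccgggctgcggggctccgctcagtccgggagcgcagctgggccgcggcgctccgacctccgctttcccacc
ADM: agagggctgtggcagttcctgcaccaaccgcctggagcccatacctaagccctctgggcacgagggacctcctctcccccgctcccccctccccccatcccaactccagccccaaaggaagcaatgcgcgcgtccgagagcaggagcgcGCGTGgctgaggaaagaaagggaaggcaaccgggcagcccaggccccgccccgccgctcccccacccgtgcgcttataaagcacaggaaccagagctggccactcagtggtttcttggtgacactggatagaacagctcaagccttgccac
Of the 37 members with a promoter in that table, 26 held at least 1 core, which is 70.3% against 48.4% of all 35116 promoters of 300 bases. The core ACGTG alone was in 14 members, 37.8% against 21.4% of all promoters. The members' windows also had more G and C, with a median of 69.7% against 58.7% over all windows, and its part in the higher share was not tested. No core was found for HK1, PFKM, PFKP, TPI1, PGAM1, PDK1, PDK4, SLC16A3, EGLN3, P4HA2 and MXI1, and SLC2A3, SLC16A1, BNIP3L and NDRG1 were not in the table. A match describes the letters of the window and is not a site or a cause.

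Senescent cells with vehicle carried more RNA of most of the glycolytic chain than proliferating cells, among them HK2, ENO2 and HIF1A, while the glucose carrier SLC2A1, the kinase PDK1 and the factor EPAS1 stood lower. At 16 h, 24 of the 38 tested members rose and 8 fell, where 51.6% of all tested genes were called, 26.4% higher and 25.2% lower. At 36 h, 24 rose and 9 fell, where 52.5% of all genes were called, 26.7% higher and 25.8% lower. With the caspase inhibitor 24 rose and 9 fell, where 52.3% were called, 26.6% higher and 25.7% lower. The median log2 change of the members was 0.32, 0.49 and 0.48 in these 3 comparisons, and that of all tested genes was 0.01, -0.01 and 0. In all 3 comparisons 20 members rose and 8 fell, and the share of all genes called alike in all 3 was not computed. With scaling by library size only, the median of all genes shifted by -0.10 to -0.15 here, which left 21 rising and 9 falling members at 16 h, 21 and 9 at 36 h, and 18 and 9 with the inhibitor. The count of all genes called under that scaling is not given here.

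Among the carriers, the 2 glucose transporters moved in opposite directions. SLC2A3 (GLUT3), a glucose transporter of high affinity, had 117, 118 and 122 CPM in the 3 senescent vehicle libraries at 36 h, against 60.5, 56.1 and 54.4 CPM in the proliferating ones. Every senescent library lay above every proliferating one, and the log2 change was 1.06 ± 0.10 (adjusted p = 1.7e-11), beside 0.86 ± 0.10 at 16 h and 1.14 ± 0.10 with the inhibitor. SLC2A1 (GLUT1), the basal glucose transporter of most cells, had 63.1, 64.2 and 62.3 CPM in senescent cells, against 144, 138 and 147 CPM in proliferating cells. It fell in all 3 comparisons without overlap of libraries, by 1.10, 1.18 and 0.85 on the log2 scale at 16 h, 36 h and 36 h with the inhibitor. SLC16A1 (MCT1), a carrier of lactate and pyruvate, rose by 0.78 ± 0.07, 0.80 ± 0.07 and 0.85 ± 0.07, and SLC16A3 (MCT4), the carrier linked with lactate export, by 0.37 ± 0.09, 0.86 ± 0.09 and 0.78 ± 0.10.

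Of the 15 glycolytic enzymes, 12 rose and 3 fell at 16 h, and 11 rose and 3 fell at 36 h without and with the inhibitor. Of all tested genes, 26.4% to 26.7% were called higher and 25.2% to 25.8% lower in these comparisons. HK2, the inducible hexokinase that traps glucose in the cell, had 175, 173 and 170 CPM in senescent libraries at 36 h, against 27.7, 29 and 25.6 CPM in proliferating libraries. Every senescent library lay above every proliferating one, and HK2 was 4.23-fold higher at 16 h, 6.3-fold higher at 36 h and 7.23-fold higher with the inhibitor (adjusted p = 8.23e-20, 8.64e-23 and 2.34e-23). HK1, the constitutive hexokinase, rose by 0.70 ± 0.07, 1.06 ± 0.07 and 0.98 ± 0.07. ENO2, the enolase best known from neurons, stood at 53.4 ± 1.94 CPM in senescent cells, against 20.6 ± 1.62 CPM in proliferating cells at 36 h (SD, n = 3 each), and rose by 1.15 ± 0.09, 1.37 ± 0.09 and 1.49 ± 0.09. GPI, which converts glucose 6-phosphate to fructose 6-phosphate, rose by 0.84 ± 0.06, 1.00 ± 0.06 and 0.90 ± 0.06. The abundant enzymes of the lower chain, ALDOA, TPI1, GAPDH, PGK1, PGAM1, ENO1 and PKM, all rose in the 3 comparisons, with log2 changes between 0.29 (GAPDH with the inhibitor) and 0.77 (TPI1 at 16 h). For GAPDH with the inhibitor the call was lost when libraries were scaled by size alone (0.14, adjusted p = 0.141), and at 16 h the change of GAPDH was 0.18 without proliferating replicate 2.

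The 3 enzymes that fell were an aldolase and 2 phosphofructokinases. ALDOC, the aldolase of brain, had 3.28, 4.97 and 3.46 CPM in senescent cells at 36 h, against 10.1, 10.8 and 12.5 CPM in proliferating cells, and fell by 0.90, 1.51 and 1.42 on the log2 scale in the 3 comparisons. PFKL and PFKP, the liver and platelet forms of phosphofructokinase, which commits sugar to glycolysis, fell by 0.30 to 0.35 and by 0.28 to 0.51. The muscle form PFKM rose at 16 h (0.29 ± 0.06) and was not called later, at 0.13 ± 0.06 and 0.11 ± 0.06. In the proliferating group at 16 h, replicate 2 stood apart for several abundant enzymes, for example TPI1 with 455, 254 and 409 CPM and GAPDH with 2738, 1903 and 2675 CPM.

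Of the genes that direct flux and pyruvate, LDHA, which makes lactate, rose by 0.62 ± 0.09, 0.89 ± 0.09 and 0.96 ± 0.09, with 588, 580 and 575 CPM in senescent libraries at 36 h and 324, 282 and 332 CPM in proliferating ones. LDHB, the form that favours pyruvate, was called at 16 h only (0.31 ± 0.11), with overlapping libraries. It was at 0.50 without proliferating replicate 1, and the call was lost without proliferating replicate 2 or senescent vehicle replicate 1 (adjusted p = 0.0928 to 0.334). PDK1, an inhibitory kinase of pyruvate dehydrogenase, fell to 16 ± 0.603 CPM in senescent cells at 36 h, against 31.1 ± 1.71 CPM in proliferating cells (SD, n = 3 each), with log2 changes of -0.98 ± 0.08, -0.96 ± 0.09 and -1.11 ± 0.09. PFKFB3, whose product fructose 2,6-bisphosphate speeds up phosphofructokinase, rose by 0.31 ± 0.09, 0.54 ± 0.09 and 0.37 ± 0.10. The call of PFKFB3 at 16 h was lost without senescent vehicle replicate 2 (adjusted p = 0.0569), and with scaling by library size it was lost at 16 h (0.20) and with the inhibitor (0.22). PFKFB4, a second enzyme of that kind, was called at 36 h (0.49 ± 0.15) and with the inhibitor (0.46 ± 0.16), and each call was lost without 1 library, senescent vehicle 36 h replicate 2 in the first case and proliferating 36 h caspase inhibitor replicate 1 in the other (adjusted p = 0.0566 and 0.0794). Both PFKFB4 calls were also lost with that scaling (0.34 and 0.31). PDK3, another pyruvate dehydrogenase kinase, rose at 36 h (1.53 ± 0.36) on 57 counts in senescent and 20 in proliferating libraries.

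The 2 hypoxia-inducible factors moved against each other. HIF1A had 880, 855 and 862 CPM in senescent libraries at 36 h, against 327, 314 and 315 CPM in proliferating libraries, and EPAS1 (HIF-2α) had 231, 234 and 233 CPM, against 593, 580 and 555 CPM. Neither pair of groups overlapped. The log2 changes of HIF1A were 1.09 ± 0.06, 1.44 ± 0.06 and 1.37 ± 0.06, and those of EPAS1 were -0.98 ± 0.08, -1.31 ± 0.08 and -1.24 ± 0.08. EGLN1 (PHD2), the main prolyl hydroxylase that marks both factors for degradation, was called at 16 h (0.17 ± 0.06) and with the inhibitor (0.21 ± 0.07). The 16 h call was lost without any 1 of 4 of the 6 libraries (adjusted p = 0.0922 to 0.118), and both calls were lost when libraries were scaled by size alone.

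The hypoxia targets showed no common direction. Of the 10 tested, 4 rose and 2 fell at 16 h, and 5 rose and 3 fell at 36 h without and with the inhibitor. Among all tested genes the shares were 26.4% to 26.7% higher and 25.2% to 25.8% lower. P4HA2, a subunit of the collagen prolyl hydroxylase, stood at 208, 205 and 202 CPM in senescent libraries, against 93.3, 97.1 and 98.6 CPM in proliferating libraries at 36 h, and rose by 1.2 ± 0.08, 1.09 ± 0.08 and 1.00 ± 0.08. P4HA1, the other such subunit, rose by 0.60, 0.42 and 0.59, and BNIP3, a receptor that marks mitochondria for removal, by 0.63, 0.49 and 0.50. CA12, a carbonic anhydrase of the cell surface, fell by 1.55, 1.51 and 1.63, and MXI1, an antagonist of MYC, by 0.49, 0.68 and 0.72. ADM, which encodes the vasodilator peptide adrenomedullin, fell to 34.6, 34 and 34.9 CPM in senescent libraries at 36 h, against 59.8, 67.4 and 74.3 CPM in proliferating libraries, while at 16 h its libraries overlapped and its change of -0.15 ± 0.09 was not called. BNIP3L (NIX), a second mitophagy receptor, was not called in any of the 3 comparisons, with changes of 0.10, -0.02 and 0.02 on the log2 scale. ANKRD37, an ankyrin-repeat protein, was called at 36 h (0.89 ± 0.36) and with the inhibitor (1.18 ± 0.43) on 61 and 42 counts in senescent and 34 and 20 in proliferating libraries, and each call was lost without any 1 of 3 libraries (adjusted p = 0.0879 to 0.199 and 0.0505 to 0.133). KDM3A, a histone demethylase, was called at 36 h (0.17 ± 0.07), and that call was lost without any 1 of 5 of the 6 libraries (adjusted p = 0.0618 to 0.269). BNIP3 at 16 h was at 0.36 without proliferating replicate 2. The calls of ANKRD37 and KDM3A were also lost with scaling by library size. NDRG1, a stress-responsive gene, was called at 16 h (0.28 ± 0.08) and with the inhibitor (0.29 ± 0.08), and the second call was lost with that scaling (0.14).

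**Figure D1:**
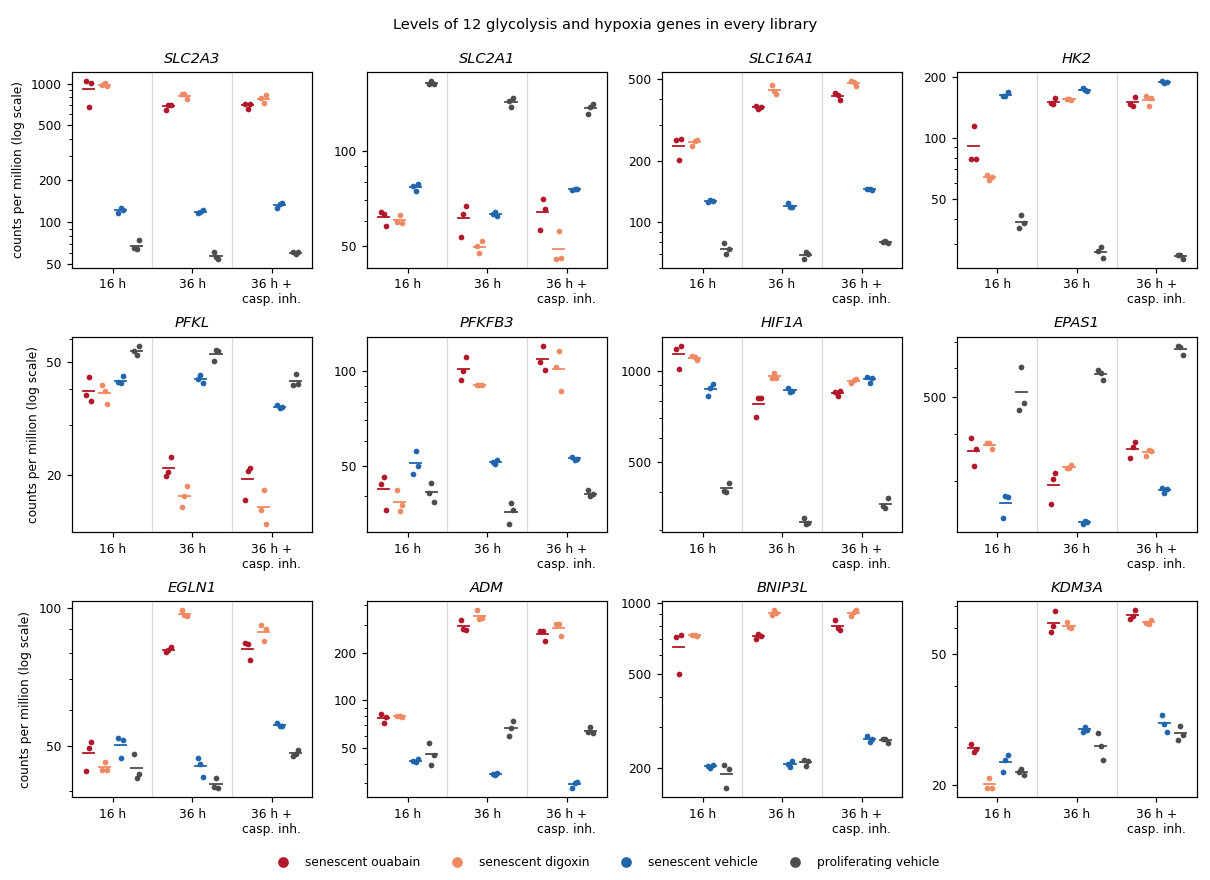
Levels of 12 of the 41 genes in every library (CPM, log axis), with ouabain, digoxin, senescent vehicle and proliferating cells from left to right within each time, dots for libraries and bars for group means (n = 3). SLC2A3 stands at 916 and 982 CPM with ouabain and digoxin at 16 h, against 122 CPM in senescent vehicle cells, and ADM reaches 293 and 341 CPM at 36 h, against 34.5 CPM.

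Both cardiac glycosides were followed by changes in either direction among these genes in senescent cells. SLC2A3 and BNIP3L rose at both times, and the effects on ADM, SLC16A1, EGLN1 and KDM3A were higher at 36 h than at 16 h. At 36 h PFKL, PFKFB4, PDK1 and P4HA2 stood lower with the drugs than with vehicle. With ouabain at 16 h, 16 members rose and 5 fell, where 53.4% of all tested genes were called, 25.1% higher and 28.4% lower. At 36 h with ouabain 19 rose and 10 fell, where 61% of all genes were called, 30.2% higher and 30.8% lower, and with the caspase inhibitor 22 rose and 7 fell, where 59.5% were called, 28.9% higher and 30.6% lower. With digoxin at 16 h, 21 members rose and 7 fell, where 59.6% of all genes were called, 28.3% higher and 31.3% lower. At 36 h with digoxin 19 rose and 9 fell, where 64% were called, 31.6% higher and 32.4% lower, and with the inhibitor 20 rose and 8 fell, where 62.4% were called, 30.3% higher and 32.1% lower. The members' called counts of 21 to 29 of 38 stand against these shares of all genes, with no test of the list. The median log2 change of the members was 0.21, 0.29 and 0.34 with ouabain and 0.26, 0.19 and 0.27 with digoxin, and that of all genes lay between -0.025 and 0.022. HRAS and the sum of the senescence markers were also higher with both drugs, and the sum of the fibroblast markers lower at 36 h, as given above. Their part in these changes was not tested. The 2 drugs were set against the same vehicle libraries, and these libraries are also the senescent side of the comparison with proliferating cells.

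The split of these calls depends on the scaling. With scaling by library size only, the median change of all genes shifted by -0.21 to -0.28 for ouabain and by -0.24 to -0.31 for digoxin. The rising and falling members then numbered 7 and 14 at 16 h, 15 and 14 at 36 h, and 16 and 10 with the inhibitor for ouabain. For digoxin they numbered 11 and 15, 12 and 19, and 14 and 15. Of all 18696 genes, 11136 and 12684 were called with digoxin at 16 h and 36 h under that scaling. The split of all genes by direction was not computed for it, here or wherever such counts are given. The totals for ouabain and for digoxin with the inhibitor are not given here. Where no total of all genes called stands beside such counts, here or elsewhere, they do not show a trait of the genes counted. The shift of the median is that of all genes, and whether the changed split is particular to the members was not tested. Of the glycolytic enzymes called as rising, 1 of 7 with ouabain and 4 of 9 with digoxin kept the call at 16 h under that scaling, and at 36 h 4 of 6 and 2 of 4. With the inhibitor 4 of 8 and 3 of 6 kept it. All calls of the carriers described next kept direction and call under it.

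SLC2A3 was the member with the largest change at 16 h. Its level was 1050, 680 and 1017 CPM with ouabain and 977, 1013 and 955 CPM with digoxin at 16 h, against 117, 127 and 123 CPM with vehicle. At 36 h it was 648, 707 and 703 CPM with ouabain and 839, 840 and 769 CPM with digoxin, against 117, 118 and 122 CPM with vehicle. At 16 h ouabain replicate 2 was the lowest drug-treated library, and at both times every drug-treated library lay far above every vehicle library. The gene was 7.47-fold higher, 5.76-fold higher and 5.25-fold higher with ouabain at 16 h, 36 h and 36 h with the inhibitor, and 8.01-fold higher, 6.86-fold higher and 5.87-fold higher with digoxin. The largest adjusted p of these 6 was 9.54e-21. SLC2A14, a near-identical copy that can share its reads, moved by 2.93, 2.60 and 2.38 with ouabain and by 3.01, 2.86 and 2.59 with digoxin, so the 2 genes cannot be told apart here.

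SLC2A1 did not follow SLC2A3. It had 64.3, 63 and 57.9 CPM with ouabain and 59.8, 62.6 and 59 CPM with digoxin at 16 h, against 77.3, 74.5 and 78.6 CPM with vehicle. It fell with digoxin in all 3 arms, by 0.35, 0.34 and 0.63, and with ouabain at 16 h (-0.31 ± 0.08) and with the inhibitor (-0.24 ± 0.08), where the call was lost without ouabain 36 h caspase inhibitor replicate 1 (adjusted p = 0.105). At 36 h without the inhibitor its change with ouabain was -0.05 ± 0.08 and not called. SLC16A1 had 371, 358 and 365 CPM with ouabain and 466, 436 and 424 CPM with digoxin at 36 h, against 124, 119 and 119 CPM with vehicle. It rose at 16 h by 0.89 ± 0.07 and 0.95 ± 0.07 and at 36 h by 1.59 ± 0.07 and 1.87 ± 0.07 with ouabain and digoxin. SLC16A3 rose at 16 h only, by 0.75 ± 0.09 with ouabain and 0.86 ± 0.09 with digoxin, and stood at 0.03 ± 0.09 and 0.07 ± 0.09 at 36 h. CSNK1D, which overlaps SLC16A3 on the opposite strand with 74.8% of its counts, was at -0.14 and -0.33 at 16 h, and because no source used here gives the strand setting, reads of such pairs may be shared.

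Among the enzymes, HK2 was lower at 16 h and PFKL at 36 h with both drugs. HK2 fell at 16 h to 78.9, 115 and 78.4 CPM with ouabain and 65.8, 62.3 and 64.5 CPM with digoxin, against 161, 161 and 168 CPM with vehicle, with log2 changes of -0.84 ± 0.09 (adjusted p = 5.35e-10) and -1.34 ± 0.09 (adjusted p = 6.72e-15). Ouabain replicate 2 was the highest of the drug-treated libraries and still below vehicle. At 36 h HK2 was at 149, 146 and 157 CPM with ouabain and 155, 155 and 154 CPM with digoxin, against 175, 173 and 170 CPM with vehicle. The change with digoxin was -0.16 ± 0.09 and not called, and that with ouabain was -0.20 ± 0.09, at an adjusted p of 0.05 after rounding, a call lost without any 1 of 5 libraries (adjusted p = 0.0666 to 0.124) and also lost with RLE size factors, DESeq2 and the replicate block. With the inhibitor HK2 fell with both drugs, by 0.34 with ouabain and 0.29 with digoxin. HK1 was not called with either drug in any arm, with changes between -0.13 and 0.07.

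PFKL was not called at 16 h and fell at 36 h to 19.8, 20.4 and 23.2 CPM with ouabain and 15.4, 16.9 and 18.3 CPM with digoxin, against 43.4, 44.8 and 42.1 CPM with vehicle. All drug-treated libraries lay below all vehicle libraries, and the log2 changes were -1.05 ± 0.09 (adjusted p = 7.1e-12) and -1.36 ± 0.10 (adjusted p = 1.25e-14). PFKM fell at 36 h by 0.58 with ouabain and 0.68 with digoxin. At 16 h with digoxin PFKM was called higher (0.14 ± 0.06), a call lost without any 1 of the 6 libraries and reversed to -0.17 with scaling by library size. PFKP fell at 36 h by 0.17 with ouabain, a call lost without any 1 of 4 libraries (adjusted p = 0.0504 to 0.142), and by 0.28 with digoxin. ALDOC fell at 36 h to 2.36, 2.88 and 2.29 CPM with ouabain and 2.28, 2.36 and 2.06 CPM with digoxin, against 3.28, 4.97 and 3.46 CPM with vehicle, and the ouabain call was lost without vehicle 36 h replicate 2 (-0.42, adjusted p = 0.0827).

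ALDOA, ENO1, ENO2 and PGAM1 rose with both drugs in all 3 arms, and PKM did so with ouabain. ALDOA, the main aldolase, had 1220, 1258 and 1320 CPM with ouabain and 1229, 1170 and 1168 CPM with digoxin at 36 h, against 798, 797 and 791 CPM with vehicle. Its changes were 0.46 ± 0.08, 0.67 ± 0.08 and 0.69 ± 0.08 with ouabain and 0.54 ± 0.08, 0.58 ± 0.08 and 0.59 ± 0.08 with digoxin. ENO2 stood at 104, 112 and 120 CPM with ouabain and 83.9, 91 and 86.8 CPM with digoxin at 36 h, against 55.6, 52 and 52.6 CPM with vehicle, changes of 1.07 ± 0.09 and 0.71 ± 0.09. ENO1, the general enolase, rose by 0.45, 0.48 and 0.59 with ouabain and by 0.55, 0.34 and 0.53 with digoxin, and PKM, the pyruvate kinase of most tissues, by 0.39, 0.41 and 0.41 with ouabain. With scaling by library size the calls at 16 h with ouabain were lost for ENO1 (0.17), ENO2 (0.04) and PKM (0.11), as was that of ENO1 with digoxin at 36 h (0.03). PGAM1, the phosphoglycerate mutase, rose by 0.27 with ouabain and 0.24 with digoxin at 36 h, and it turned to -0.02 with ouabain at 16 h and to -0.08 with digoxin at 36 h when scaled by library size. With ouabain at 36 h that scaling shifted the median of all genes by -0.22, close to the size of the rise of PGAM1. Its copy PGAM4 moved by 0.23 and 0.26 at 36 h and may share its reads. PGK1, which makes ATP in the lower chain, rose at 16 h by 0.23 and 0.31 and turned to -0.06 and -0.01 under the same scaling. The ouabain call was also lost without any 1 of 4 libraries (adjusted p = 0.0602 to 0.119). ATP7A overlaps PGK1 on the same strand with 25% of its counts.

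Triose phosphate isomerase (TPI1), GAPDH and GPI changed less. TPI1 rose with ouabain at 36 h (0.31 ± 0.11) and with the inhibitor (0.39 ± 0.11), and with digoxin at 16 h (0.37 ± 0.11) and with the inhibitor (0.28 ± 0.11). The call at 36 h was lost without ouabain 36 h replicate 1 (adjusted p = 0.0793), and that of digoxin with the inhibitor without any 1 of 4 libraries (adjusted p = 0.0529 to 0.0879). GAPDH rose at 16 h by 0.31 with ouabain and 0.42 with digoxin, and with the inhibitor by 0.28 with ouabain. All these calls of TPI1 and GAPDH were lost with scaling by library size, at 0.03 to 0.17. GPI fell at 36 h by 0.15 with ouabain, a call lost without any 1 of 4 libraries (adjusted p = 0.0528 to 0.0729), and by 0.19 with digoxin. PGK1 with ouabain and the inhibitor was called higher (0.24 ± 0.08), which was lost without ouabain 36 h caspase inhibitor replicate 2 (adjusted p = 0.0536).

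The regulators of flux split by time and by gene. PFKFB3 fell at 16 h to 43.8, 46 and 36.2 CPM with ouabain and 41.8, 35.9 and 37.4 CPM with digoxin, against 47.1, 55.9 and 50 CPM with vehicle. At 36 h it stood at 93.9, 100 and 111 CPM with ouabain and 90.3, 90.2 and 90.8 CPM with digoxin, against 51.4, 50.8 and 52.3 CPM with vehicle. The early change was -0.28 ± 0.09 with ouabain, lost without ouabain replicate 3 or vehicle replicate 2 (adjusted p = 0.0969 to 0.134), and -0.41 ± 0.10 with digoxin, and the late change was 0.98 ± 0.09 and 0.81 ± 0.09. PFKFB4 fell with both drugs in all 3 arms, to 4.82, 5.71 and 5.85 CPM with ouabain and 2.62, 2.5 and 5.12 CPM with digoxin at 36 h, against 9.41, 10.5 and 8.17 CPM with vehicle. PDK1 fell by 0.42 at 16 h and 0.50 at 36 h with ouabain and by 0.32, 0.62 and 0.64 with digoxin in the 3 arms, and with ouabain and the inhibitor it was at -0.15 ± 0.09 and not called. LDHA rose with both drugs in all arms, by 0.39, 0.49 and 0.70 with ouabain and 0.48, 0.39 and 0.47 with digoxin. At 36 h its libraries held 760, 827 and 866 CPM with ouabain and 777, 757 and 754 CPM with digoxin, against 588, 580 and 575 CPM with vehicle, and neither drug group overlapped the vehicle group. When scaled by library size the change of LDHA at 16 h was 0.11 with ouabain and 0.16 with digoxin, and at 36 h 0.08 with digoxin, and these 3 calls were lost. LDHB rose with digoxin at 16 h (0.38 ± 0.11), a call also lost under that scaling (0.07). PDK3 was called higher with the inhibitor only, by 1.5 ± 0.34 with ouabain and 1.27 ± 0.35 with digoxin, on 58 and 52 counts, against 25 counts with vehicle. At 36 h without the inhibitor it had 67 counts with ouabain, 54 with digoxin and 57 with vehicle, so the drug counts were no higher with it.

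Of the oxygen sensors, EGLN1 moved furthest. It had 80.5, 81 and 82.5 CPM with ouabain and 99.1, 96.7 and 96.4 CPM with digoxin at 36 h, against 47.2, 45.7 and 42.9 CPM with vehicle, and no library overlapped. Its log2 changes were 0.85 ± 0.06 (adjusted p = 1.24e-13) and 1.11 ± 0.06 (adjusted p = 7.8e-17) at 36 h and 0.55 ± 0.06 and 0.67 ± 0.06 with the inhibitor. At 16 h it was not called with ouabain (-0.06 ± 0.06) and fell by 0.16 with digoxin, a call lost without any 1 of 4 libraries (adjusted p = 0.0769 to 0.107). HIF1A rose at 16 h by 0.38 ± 0.06 with ouabain and 0.34 ± 0.06 with digoxin, both lost under library-size scaling (0.10 and 0.02). At 36 h HIF1A had 707, 819 and 817 CPM with ouabain and 948, 990 and 950 CPM with digoxin, against 880, 855 and 862 CPM with vehicle. The ouabain group lay below vehicle (-0.15 ± 0.06) and the digoxin group above it (0.15 ± 0.06), and these calls were lost without any 1 of 4 libraries (adjusted p = 0.0511 to 0.27) and any 1 of the 6 (adjusted p = 0.0551 to 0.125). The digoxin change of HIF1A at 36 h turned to -0.16 with scaling by library size. With ouabain and the inhibitor HIF1A fell by 0.15, lost without any 1 of 4 libraries (adjusted p = 0.0617 to 0.1). EPAS1 rose with both drugs in all arms, by 0.47, 0.33 and 0.36 with ouabain and 0.52, 0.49 and 0.33 with digoxin. Under library-size scaling EPAS1 kept its direction and lost the call at 36 h with ouabain (0.11), with ouabain and the inhibitor (0.15) and with digoxin and the inhibitor (0.09).

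ADM and BNIP3L led the hypoxia targets. ADM had 82.2, 71.8 and 79 CPM with ouabain and 79.6, 80.3 and 78.8 CPM with digoxin at 16 h, against 41.8, 40.9 and 42.6 CPM with vehicle. At 36 h it had 320, 283 and 276 CPM with ouabain and 370, 325 and 329 CPM with digoxin, against 34.6, 34 and 34.9 CPM with vehicle. No drug-treated library overlapped a vehicle library at either time, and ADM was 1.86-fold higher and 8.49-fold higher with ouabain and 1.9-fold higher and 9.9-fold higher with digoxin at 16 h and 36 h (largest adjusted p = 4.4e-10). BNIP3L had 716, 498 and 729 CPM with ouabain and 731, 730 and 721 CPM with digoxin at 16 h, against 204, 201 and 207 CPM with vehicle. Ouabain replicate 2 was lower than the other drug-treated libraries and above every vehicle library. Its log2 changes were 1.67 ± 0.09, 1.79 ± 0.09 and 1.59 ± 0.09 with ouabain and 1.84 ± 0.09, 2.11 ± 0.09 and 1.77 ± 0.09 with digoxin.

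Other targets changed at 36 h. KDM3A had 58.3, 60.7 and 67.3 CPM with ouabain and 62.6, 60.1 and 59.8 CPM with digoxin at 36 h, against 28.9, 30 and 29.4 CPM with vehicle, changes of 1.07 ± 0.07 (adjusted p = 3.26e-15) and 1.05 ± 0.07 (adjusted p = 5.28e-15). At 16 h KDM3A was not called with ouabain (0.14 ± 0.07) and fell by 0.23 with digoxin, a call lost without vehicle 16 h replicate 3 (adjusted p = 0.0562). BNIP3 rose at 36 h by 0.55 with ouabain and 0.42 with digoxin, and MXI1 by 0.42 and 0.73. The calls of BNIP3 with digoxin (0.11) and of MXI1 with ouabain (0.20) were lost with scaling by library size. With digoxin and the inhibitor both were called as well, and BNIP3 lost its call without digoxin 36 h caspase inhibitor replicate 1 (adjusted p = 0.0571) and MXI1 without any 1 of 4 libraries (adjusted p = 0.0535 to 0.115). NDRG1 rose at 36 h by 0.53 with ouabain and 0.38 with digoxin, the second call lost with that scaling (0.07), and at 16 h with digoxin only (0.23 ± 0.08), a call lost without digoxin replicate 1 (adjusted p = 0.0741) and reversed to -0.09 with library-size scaling. ANKRD37 had 2.99, 3.04 and 2.71 CPM with ouabain and 2.56, 2.03 and 2.63 CPM with digoxin at 36 h, against 0.821, 1.24 and 0.813 CPM with vehicle, from 146, 104 and 61 counts. Its changes of 1.6 ± 0.29 and 1.31 ± 0.30 were called without overlap of libraries. UFSP2, which overlaps ANKRD37 on the opposite strand and had 1574% of its counts, fell over the same comparisons by 1.35 and 1.32.

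P4HA2 fell at 36 h to 121, 122 and 130 CPM with ouabain and 101, 102 and 106 CPM with digoxin, against 208, 205 and 202 CPM with vehicle, changes of -0.72 ± 0.08 (adjusted p = 5.31e-10) and -0.99 ± 0.08 (adjusted p = 2.15e-13). P4HA1 rose at 16 h by 0.35 ± 0.07 with ouabain, lost with scaling by library size (0.06), and 0.51 ± 0.07 with digoxin and was near 0 later, at -0.07 and 0.06 at 36 h. CA12 was not called with ouabain and was called with digoxin at 16 h (0.25 ± 0.10) and 36 h (0.25 ± 0.10). Those calls were lost without digoxin replicate 2 or vehicle replicate 1 at 16 h (adjusted p = 0.135 to 0.243) and without any 1 of 3 libraries at 36 h (adjusted p = 0.122 to 0.148), and both values turned to -0.07 with library-size scaling. The summed fibroblast markers were also lower with the drugs at 36 h, as given above, and their part in the change of P4HA2 was not tested.

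**Figure D2:**
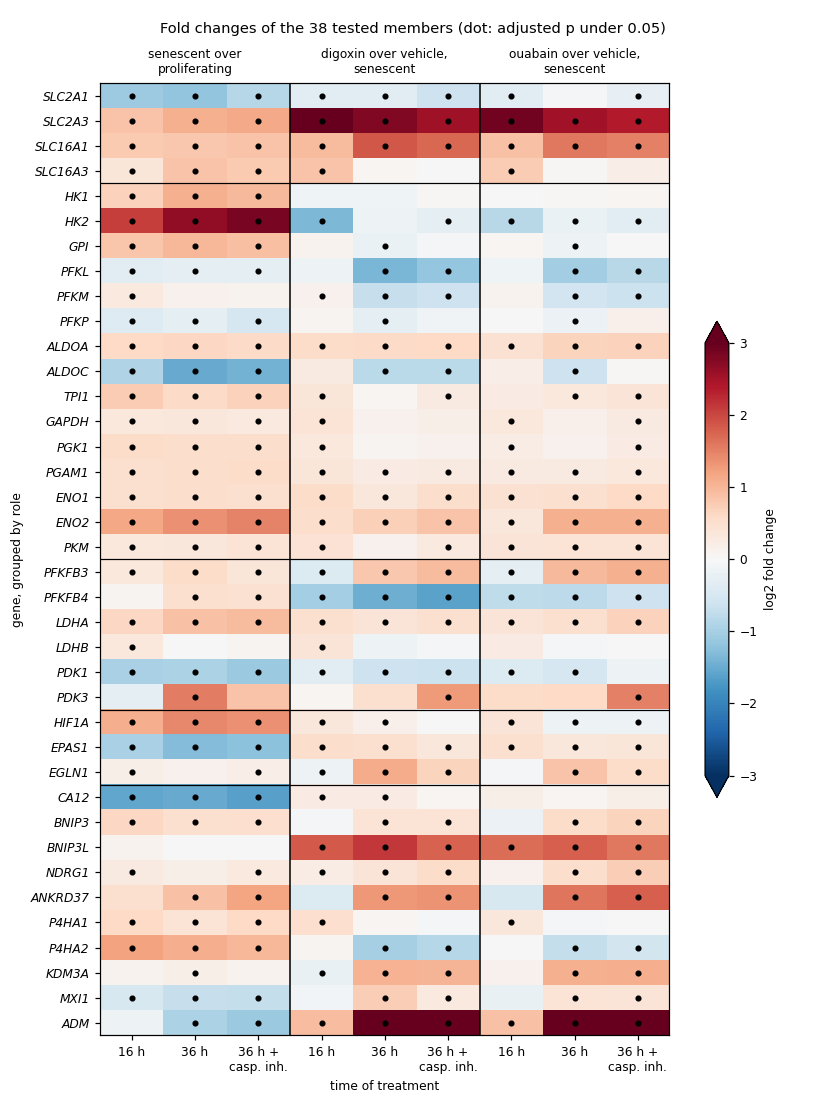
Log2 fold changes of the 38 tested members (rows, by role) in 9 comparisons (columns), with colours limited to -3 to 3 and a dot for an adjusted p under 0.05. SLC2A3 and BNIP3L are positive and called in all 6 drug columns, and HK2 has the highest values in the columns for senescent against proliferating cells, 2.08, 2.66 and 2.85.

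Whether a drug effect differed between 36 h and 16 h was tested as an interaction. With ouabain 11 members had a higher and 8 a lower effect at 36 h, where 35.1% of all genes were called, 18.4% higher and 16.7% lower. With digoxin 9 had a higher and 11 a lower effect, where 42.7% were called, 23.4% higher and 19.3% lower. ADM led with 2.19 ± 0.13 (adjusted p = 8.34e-15) for ouabain and 2.38 ± 0.13 (adjusted p = 5.26e-16) for digoxin. ANKRD37 was next, with 2.08 ± 0.48 for ouabain and 1.72 ± 0.48 for digoxin, from few counts. EGLN1, KDM3A and PFKFB3 were also positive, with 0.90 ± 0.09, 0.93 ± 0.10 and 1.26 ± 0.13 for ouabain and 1.27 ± 0.09, 1.27 ± 0.10 and 1.22 ± 0.13 for digoxin. HK2 had a positive interaction with both drugs, 0.65 ± 0.12 and 1.19 ± 0.12. The effect on PFKL, PFKM, P4HA2 and SLC16A3 was lower at 36 h, with -0.93 ± 0.13, -0.67 ± 0.09, -0.71 ± 0.11 and -0.72 ± 0.13 for ouabain and -1.21 ± 0.13, -0.82 ± 0.09, -1.07 ± 0.11 and -0.79 ± 0.13 for digoxin. Of the 15 enzymes, 2 had a higher and 3 a lower effect at 36 h with ouabain, and 1 a higher and 7 a lower effect with digoxin. Of the 10 hypoxia targets, 6 were higher and 2 lower with ouabain and 5 higher and 2 lower with digoxin. The calls of ALDOC and SLC2A3 with ouabain were lost without 1 library, that of ALDOC without vehicle 36 h replicate 2 (-0.62, adjusted p = 0.0702) and that of SLC2A3 without any 1 of 5 libraries, while without ouabain 16 h replicate 2 SLC2A3 was at -0.57, and with digoxin those of GAPDH and BNIP3 were lost without any 1 of 11 and any 1 of 9 of the 12 libraries.

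**Figure D3:**
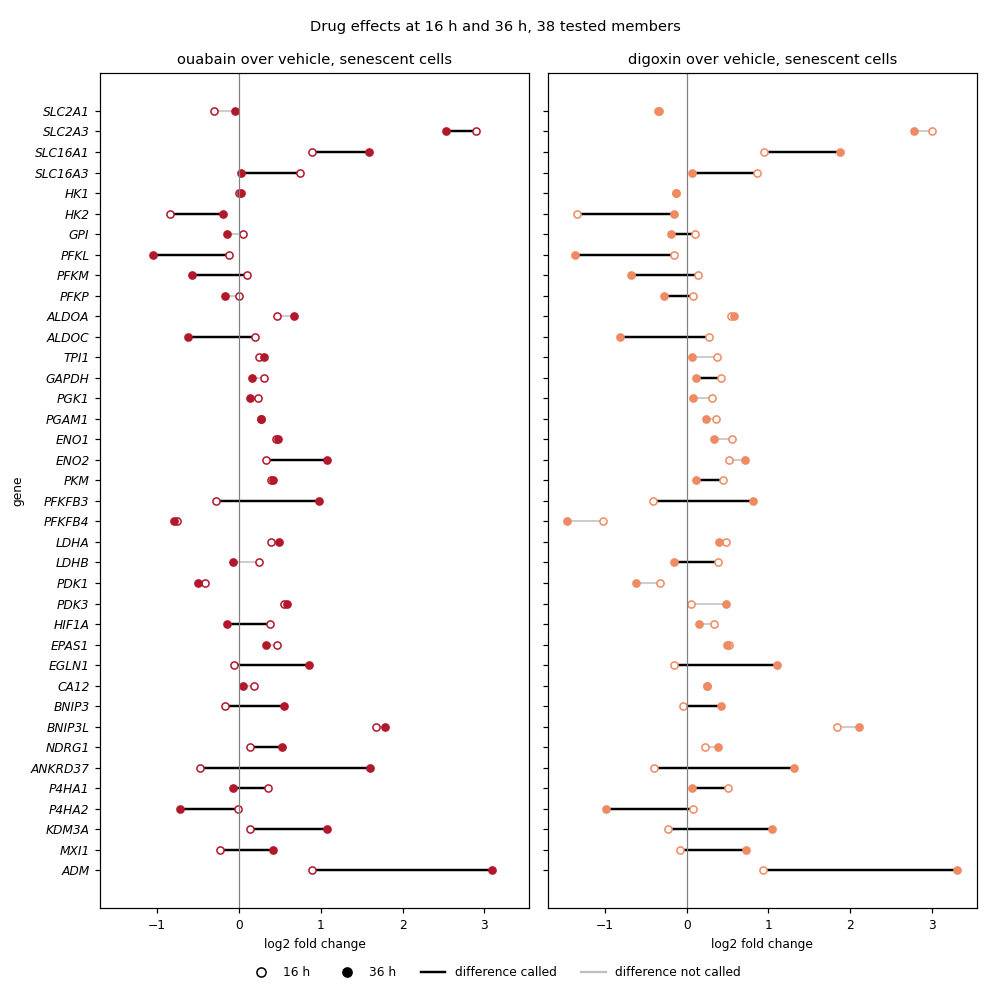
Log2 change against vehicle for each tested member at 16 h (open circles) and 36 h (filled circles), with ouabain and digoxin in a panel each, and a black line where the difference between the times was called. ADM is at 0.89 at 16 h and 3.09 at 36 h with ouabain, and PFKL is at -0.15 at 16 h and -1.36 at 36 h with digoxin.

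The 2 drugs share a steroid core with a lactone ring, and they differ in the sugars attached to it and in the number of hydroxyl groups, which is higher on the core of ouabain. Set directly against each other at the same times, they differed in fewer members than either did from vehicle. Since no dose is given in the labels, the doses cannot be compared. All 38 members were compared in each of 3 arms, with p-values adjusted over all tested genes. At 16 h 2 members were higher with ouabain, where 4.94% of all genes were called, 3.95% higher and 0.984% lower. At 36 h 5 were higher and 4 lower, where 5.36% were called, 1.52% higher and 3.85% lower. With the inhibitor 5 were higher, where 1.45% were called, 0.439% higher and 1.01% lower. Scaling by library size gave 7 higher and 1 lower at 36 h. Without replicate 2 of ouabain and of proliferating cells at 16 h, 16 members were called at 36 h and 11 with the inhibitor. The share of all genes called in that fit is not given here.

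At 16 h HK2 was higher with ouabain than with digoxin by 0.50 ± 0.09 (adjusted p = 0.000924), with a 95% interval of 0.32 to 0.68, from the library values given above. Without ouabain replicate 2 it was 0.28 (adjusted p = 0.0372). KDM3A had 26.6, 25.2 and 25.6 CPM with ouabain, against 19.5, 21 and 19.6 CPM with digoxin, a difference of 0.37 ± 0.08 (adjusted p = 0.00337). Neither pair of groups overlapped. In a fit of these 2 groups alone neither was called, where 0 of 38 members passed. At 36 h PKM had 3848, 3779 and 3791 CPM with ouabain, against 3126, 3096 and 3071 CPM with digoxin, a difference of 0.30 ± 0.06 (adjusted p = 0.00351), the 1 call of that time that held without any single library. The other 8 were each lost without 1 or more libraries. They were ENO2 (0.36), PFKFB4 (0.67), SLC2A1 (0.30) and P4HA2 (0.27), higher with ouabain, and SLC16A1 (-0.28), HIF1A (-0.30), EGLN1 (-0.26) and BNIP3L (-0.32), lower with ouabain. The libraries of PFKFB4 overlapped, and its difference was 1.08 without digoxin replicate 3. Without digoxin 36 h replicate 1 only 2 of the 9 calls of that time were made, and without ouabain replicates 1, 2 or 3 or digoxin replicate 2 there were 5, 4, 4 and 5.

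With the inhibitor the 5 members higher with ouabain were ALDOC (0.84), PFKFB4 (0.97), PDK1 (0.49), SLC2A1 (0.39) and P4HA2 (0.31). Each was lost without 1 or more libraries, and without digoxin replicate 1, digoxin replicate 3 or ouabain replicate 2 of that arm only 1 member was called, and without ouabain replicate 3 there were 3. The genes with the largest drug effects were not called apart. For SLC2A3 the difference between ouabain and digoxin had 95% intervals of -0.29 to 0.09, -0.44 to -0.06 and -0.35 to 0.03 in the 3 arms, and for ADM of -0.22 to 0.15, -0.40 to -0.04 and -0.31 to 0.05. These intervals are not adjusted for the number of genes, and those at 36 h lie below 0, with adjusted p of 0.111 for SLC2A3 and 0.138 for ADM. The missed threshold does not show that the drugs act alike on them. PFKL, at 0.32 and 0.33 in the 36 h arms, was not called either, with intervals of 0.11 to 0.52 and 0.12 to 0.54.

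**Figure D4:**
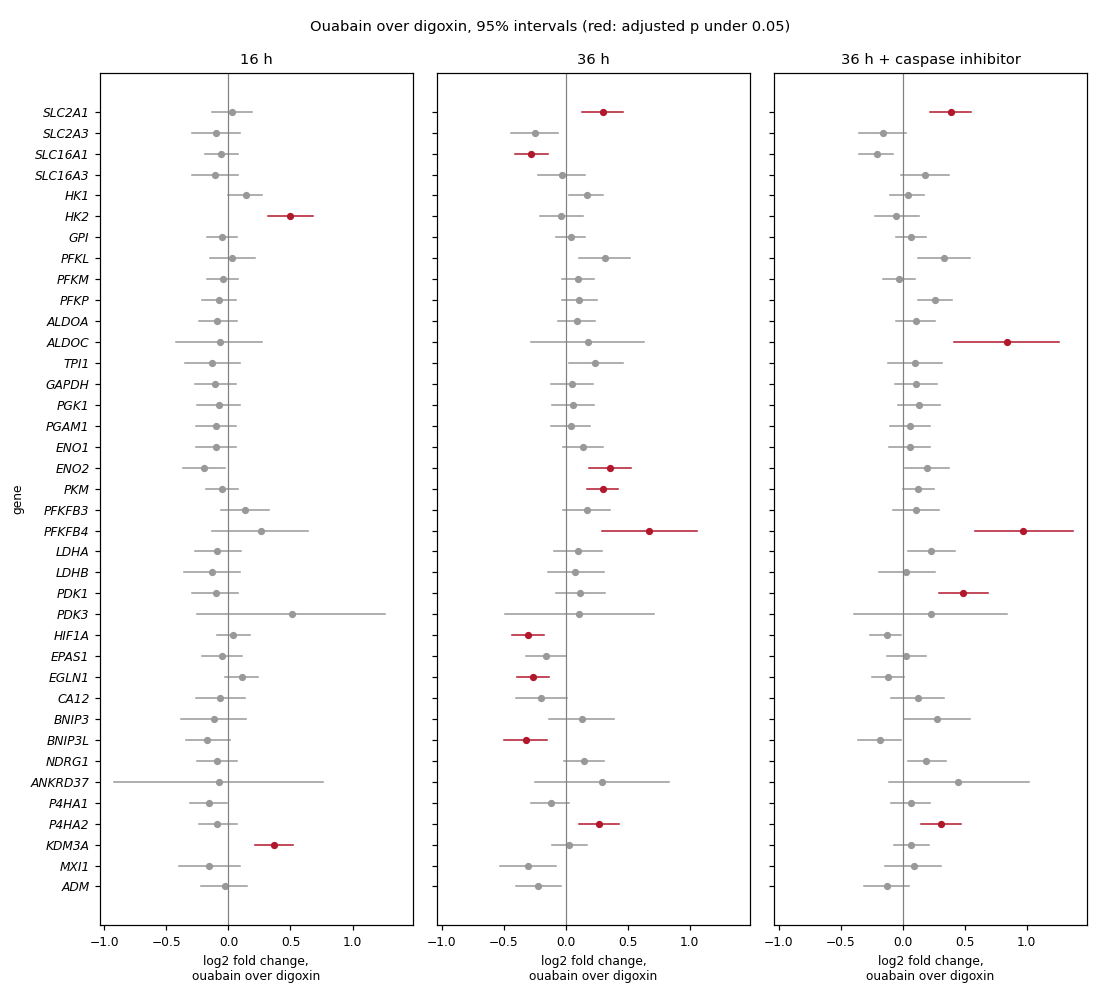
Log2 difference between ouabain and digoxin for each tested member in the 3 arms, with 95% intervals and called differences in red. HK2 and KDM3A are the red points at 16 h, at 0.50 and 0.37, and at 36 h SLC2A3 and ADM have intervals of -0.44 to -0.06 and -0.40 to -0.04, below 0 before adjustment and not called after it.

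The groups with the overnight caspase inhibitor were set against the 36 h groups without it. With ouabain 6 rose and 1 fell, where 8.89% of all genes were called, 5.31% higher and 3.58% lower. With digoxin 1 rose and 1 fell, where 0.877% were called, 0.305% higher and 0.572% lower. In senescent vehicle cells 7 rose and 5 fell, where 7.41% were called, 5.27% higher and 2.14% lower. In proliferating cells 3 rose and 3 fell, where 3.59% were called, 2.75% higher and 0.834% lower. NDRG1 rose with the inhibitor in all 3 senescent groups, by 0.50 ± 0.08 with ouabain, 0.45 ± 0.08 with digoxin and 0.29 ± 0.08 with vehicle, and was at 0.17 ± 0.08 in proliferating cells. Its call with vehicle was lost without any 1 of 5 libraries (adjusted p = 0.0607 to 0.104). SLC16A3 fell by 0.49 with digoxin, by 0.43 in senescent vehicle cells and by 0.36 in proliferating cells, and was at -0.28 ± 0.09 with ouabain. Its calls with digoxin and in proliferating cells were lost without 1 or more libraries. MXI1 rose by 0.38 with ouabain, 0.42 in senescent vehicle cells and 0.46 in proliferating cells, and each call was lost without 1 or more libraries. BNIP3L and EGLN1 rose in both vehicle groups, by 0.35 and 0.30 in senescent cells and 0.31 and 0.22 in proliferating cells. In proliferating cells both calls were lost without any 1 of the 6 libraries (adjusted p = 0.0563 to 0.148 and 0.0747 to 0.172). The BNIP3L call in senescent cells was lost without any 1 of 2 libraries (adjusted p = 0.0575 to 0.0602). PFKL and PKM fell in both vehicle groups, by 0.32 and 0.21 in senescent cells and by 0.32 and 0.29 in proliferating cells. In senescent cells both calls were lost without any 1 of the 6 libraries (adjusted p = 0.055 to 0.103 and 0.0565 to 0.156). In proliferating cells they were lost without any 1 of 5 libraries for PFKL and without 1 library for PKM.

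The remaining calls were ALDOC (0.80), PDK1 (0.37), EPAS1 (0.31), P4HA1 (0.29) and PKM (-0.21) with ouabain, and SLC2A1 (0.26), SLC16A1 (0.26), EPAS1 (0.29), PFKP (-0.29) and ENO1 (-0.29) in senescent vehicle cells. Of the calls with ouabain 6 of 7, with digoxin 1 of 2, in senescent vehicle cells 10 of 12 and in proliferating cells 6 of 6 were lost without 1 or more libraries. The count with ouabain was 2 without ouabain 36 h replicate 1, and 3 and 4 without replicates 2 and 3 of its inhibitor arm. With digoxin it was 1 without replicate 3 of its inhibitor arm. In senescent vehicle cells it was 2 to 7 without any 1 of the 6 libraries, and in proliferating cells 0 without replicate 1 of the inhibitor arm, 2 or 3 without replicate 2 or 3 of either arm. Scaling by library size gave 5 rising and 6 falling members with ouabain, 3 and 8 in senescent vehicle cells and 1 and 5 in proliferating cells. Of all 18696 genes, 1655, 1139 and 467 were called in these comparisons under that scaling. The effects of ouabain and digoxin described above had the same direction with the inhibitor for SLC2A3, SLC16A1, BNIP3L, ADM, KDM3A, EGLN1, PFKFB3, PFKFB4, PFKL and P4HA2, each called.

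Within pairs of genes that do the same step, the share of each member was computed per library from CPM per kilobase of exon. The length was the union of all annotated exons of a gene, for example 6210 bases for LDHA and 2983 for LDHB. The level of a share and the order of genes per kilobase depend on these lengths, which are the same in every group. SLC2A3 made up 90.3%, 89.5% and 89% of the sum of SLC2A3 and SLC2A1 with ouabain and 92.8%, 93.1% and 91.9% with digoxin at 36 h, 58.7%, 58.6% and 60% in senescent vehicle cells and 24.3%, 23.8% and 22.1% in proliferating cells. No group overlapped another, and ouabain and digoxin lay closest together. HK2 made up 25.1 ± 3.62% of the hexokinase pair with ouabain and 20.8 ± 0.5% with digoxin at 16 h, 37.9 ± 1.4% in senescent vehicle cells and 19 ± 0.717% in proliferating cells (SD, n = 3 each). At 36 h it was 33.4 ± 1.18% with ouabain, 36.6 ± 1.52% with digoxin, 37 ± 0.35% in senescent vehicle cells and 16.3 ± 0.0783% in proliferating cells. HIF1A made up 79.1 ± 0.417% of HIF1A and EPAS1 with ouabain, 80.7 ± 0.476% with digoxin, 84.1 ± 0.292% in senescent vehicle cells and 44 ± 0.596% in proliferating cells at 36 h.

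The share of LDHA in LDHA and LDHB at 36 h was 47.9 ± 3.57% with ouabain, 47.6 ± 1.43% with digoxin, 38.3 ± 0.166% in senescent vehicle cells and 25.2 ± 1.98% in proliferating cells. SLC16A1 made up 82.1 ± 1.68% and 84.4 ± 1.36% of the lactate carrier pair with ouabain and digoxin at 36 h, against 60.9 ± 1.65% in senescent vehicle cells, and 62 ± 2.54% in proliferating cells. BNIP3L made up 90.9 ± 0.398% and 93.2 ± 0.385% of the mitophagy receptor pair with ouabain and digoxin, against 81 ± 0.541% in senescent vehicle cells. Of the 3 phosphofructokinases, PFKL held 10.1 ± 0.544% with ouabain and 8.8 ± 0.389% with digoxin at 36 h, 15.2 ± 0.545% in senescent vehicle cells and 17.2 ± 0.952% in proliferating cells. Per kilobase by these exon lengths, GAPDH was the most abundant member in senescent vehicle cells at 36 h with 1024 CPM. PKM followed with 333 CPM and TPI1 and ENO1 with 223 and 222 CPM. HIF1A stood at 168 and EPAS1 at 31.9 CPM per kilobase there.

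**Figure D5:**
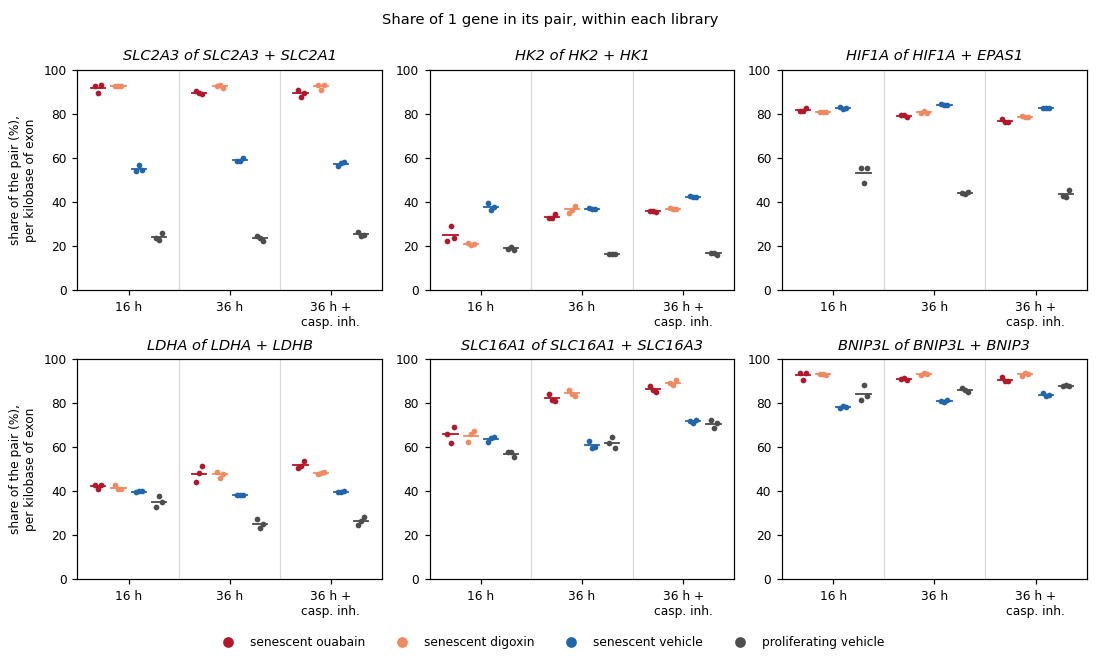
Share of the first gene of 6 pairs in the sum of the pair, per kilobase of exon (percent), with a point per library and ouabain, digoxin, senescent vehicle and proliferating cells from left to right in each arm. The SLC2A3 share is near 90% with both drugs, between senescent vehicle cells (59.1 ± 0.786% at 36 h) and the top of the axis, and lowest in proliferating cells (23.4 ± 1.19%).

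The members outside the filter had few reads. PDK4, a starvation-induced pyruvate dehydrogenase kinase, had 13 counts with ouabain and 14 with digoxin at 36 h, against 1 count with vehicle. EGLN3, a hypoxia-induced prolyl hydroxylase, had 20 counts with ouabain and 7 with digoxin at 36 h, against 2 with vehicle. CA9, a carbonic anhydrase that is a common marker of hypoxia, had at most 4 counts in the sum of any group. No fold change is given for these 3, and differences at levels this low were not tested.

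The further genes of the pathways were counted from 2 lists, chosen like the members with earlier results of these data known. Of 23 tested other genes of glycolysis and pyruvate use, 10 rose and 6 fell in senescent against proliferating cells at 16 h and 11 rose and 5 fell at 36 h. The called share was 69.6% at both times, where 51.6% and 52.5% of all genes were called. With ouabain 3 rose and 9 fell at 16 h (52.2% called, against 53.4% of all genes) and 8 rose and 10 fell at 36 h (78.3%, against 61%). With digoxin 4 rose and 10 fell at 16 h (60.9%, against 59.6%) and 8 rose and 11 fell at 36 h (82.6%, against 64%). With scaling by library size 1 rose and 15 fell at 16 h and 6 rose and 13 fell at 36 h with ouabain, and 3 rose and 14 fell, and 5 rose and 13 fell with digoxin. BPGM, which makes 2,3-bisphosphoglycerate, had 48.4 ± 4.52 CPM with ouabain, 41.5 ± 3.17 CPM with digoxin, 159 ± 5.13 CPM in senescent vehicle cells and 41.6 ± 2.21 CPM in proliferating cells at 36 h (SD, n = 3 each). Its log2 changes were -1.71 ± 0.14 with ouabain, -1.94 ± 0.14 with digoxin and 1.93 ± 0.14 in senescent against proliferating cells. SLC16A7 (MCT2), a high-affinity lactate carrier, rose by 1.91 ± 0.24 with ouabain and 2.55 ± 0.24 with digoxin at 36 h, and HKDC1, a further hexokinase, by 3.91 ± 0.22 and 3.26 ± 0.22. DLAT, a subunit of pyruvate dehydrogenase, fell, with log2 changes of -1.45 ± 0.09 with ouabain and -1.56 ± 0.09 with digoxin at 36 h.

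Of 31 tested other hypoxia genes, 14 rose and 7 fell in senescent against proliferating cells at 16 h and 16 rose and 6 fell at 36 h. The called shares were 67.7% and 71%, against 51.6% and 52.5% of all genes. With ouabain 14 rose and 10 fell at 16 h (77.4% called, against 53.4% of all genes) and 13 rose and 10 fell at 36 h (74.2%, against 61%). With digoxin 13 rose and 11 fell at 16 h (77.4%, against 59.6%) and 15 rose and 10 fell at 36 h (80.6%, against 64%). With scaling by library size 7 rose and 15 fell at 16 h and 11 rose and 11 fell at 36 h with ouabain, and 6 rose and 17 fell, and 9 rose and 13 fell with digoxin. ANGPTL4, an inhibitor of lipoprotein lipase that hypoxia induces, had 15.6 ± 0.37 CPM with ouabain and 13.3 ± 2.22 CPM with digoxin, 137 ± 2.56 CPM in senescent vehicle cells and 4.13 ± 1.11 CPM in proliferating cells at 36 h. Its log2 changes were -3.12 ± 0.15 with ouabain, -3.36 ± 0.15 with digoxin and 5.03 ± 0.17 in senescent against proliferating cells. VEGFA, the angiogenic growth factor, rose at 16 h by 1.16 ± 0.07 with ouabain and 1.03 ± 0.07 with digoxin, and in senescent against proliferating cells by 1.75 ± 0.08. AK4, an adenylate kinase of mitochondria, rose by 1.58 ± 0.17 and 1.29 ± 0.17 at 36 h with ouabain and digoxin. ARNT2, a partner of the hypoxia-inducible factors, fell in senescent against proliferating cells, with log2 changes of -3.27 ± 0.15 at 16 h and -3.54 ± 0.16 at 36 h.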

How the data were processed

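RNA from 36 libraries in 12 groups of 3 was measured by RNA-seq. The deposited values are whole-number read counts per gene, not normalized. Per the submitters' processing notes, TopHat2 2.0.11, featureCounts and the genome build hg19 were used, and no source used here gives the strand setting or the annotation release. Groups came from the labels. The members and gene lists were chosen with earlier results of these data known.

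Counts were fitted with edgeR 4.0.16 in R 4.3.3 (filterByExpr, TMM scaling, 12 group means, quasi-likelihood test), with Benjamini-Hochberg adjustment over all 18696 tested genes and calls at an adjusted p under 0.05. Standard errors are the absolute log2 change divided by the square root of F, and intervals are 95%. The method was tested on simulated data. Levels per kilobase used the length of the union of all exons of a gene in GENCODE 29, and promoters came from RefSeq on GRCh38.p14. CPM are counts scaled by the TMM-adjusted library size. Depth was 10854351 to 21446415 counts a library, and shares and low counts carry counting error besides.

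All members could be named, and of the other pathway genes at most the 3 called with the largest change in each direction per comparison and list, with at least 5 CPM in the higher group. Alternatives were DESeq2 1.42.0, RLE size factors, library-size scaling, no filter, a replicate block, the compared groups alone, leaving out each library, leaving out replicate 2 of ouabain and of proliferating cells at 16 h together, and a minimum absolute log2 change of 0.5. Replicate numbers in the labels do not pair the samples by design, and correlations of deviations between same-numbered libraries lay between -0.068 and 0.26.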

Additional observations from a re-analysis of the deposited data

Results flagged for a closer look

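The effect of a drug against vehicle differed between 36 h and 16 h for 39 member values, by the interaction term of the edgeR model at an adjusted p under 0.05. Each value is the log2 effect at 36 h minus that at 16 h. With ouabain it was positive for ADM (2.19), ANKRD37 (2.08), PFKFB3 (1.26), KDM3A (0.93), EGLN1 (0.90), ENO2 (0.74), BNIP3 (0.73), SLC16A1 (0.70), MXI1 (0.65), HK2 (0.65) and NDRG1 (0.39). With ouabain it was negative for PFKL (-0.93), ALDOC (-0.83), SLC16A3 (-0.72), P4HA2 (-0.71), PFKM (-0.67), HIF1A (-0.53), P4HA1 (-0.42) and SLC2A3 (-0.37).

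With digoxin it was positive for ADM (2.38), ANKRD37 (1.72), KDM3A (1.27), EGLN1 (1.27), PFKFB3 (1.22), HK2 (1.19), SLC16A1 (0.92), MXI1 (0.80) and BNIP3 (0.47). With digoxin it was negative for PFKL (-1.21), ALDOC (-1.08), P4HA2 (-1.07), PFKM (-0.82), SLC16A3 (-0.79), LDHB (-0.54), P4HA1 (-0.45), PFKP (-0.36), PKM (-0.33), GAPDH (-0.30) and GPI (-0.29). Both drugs were set against the same vehicle libraries.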

How the results depend on the processing

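Of 343 called member values, 230 kept direction and call under every alternative, and 274 kept both without any 1 library. DESeq2 kept 338, RLE size factors 336, the compared groups alone 328, the fit with no filter 305, library-size scaling 279 and the fit without replicate 2 of ouabain and of proliferating cells at 16 h 340. Library-size scaling reversed 9 values. With digoxin at 16 h these were PFKM (-0.17), PGK1 (-0.01), CA12 (-0.07) and NDRG1 (-0.09), with digoxin at 36 h PGAM1 (-0.08), HIF1A (-0.16) and CA12 (-0.07), and with ouabain at 16 h PGK1 (-0.06) and PGAM1 (-0.02). The replicate block kept 339 of the 343 values and gave 28 called members with ouabain at 36 h, and since the numbers do not pair the samples by design this is a check only.

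With an absolute log2 change of 0.5 or more also required, called members numbered 19 in senescent against proliferating cells at 16 h, 7, 18 and 19 with ouabain at 16 h, 36 h and 36 h with the inhibitor, 12 and 17 with digoxin at 16 h and 36 h, 1, 1 and 2 between ouabain and digoxin, and for the inhibitor 1 with ouabain and 0 in each of the other 3 groups. In fits of the compared groups alone, ouabain against digoxin gave 0 at 16 h and 10 with the inhibitor, and the inhibitor gave 12 with ouabain and 26 in senescent vehicle cells. With no filter these were 3 for ouabain against digoxin with the inhibitor and 3 for the inhibitor in senescent vehicle cells. Without those 2 libraries of 16 h, ouabain against digoxin gave 16 at 36 h and 11 with the inhibitor, and the inhibitor gave 14 with ouabain, 19 in senescent vehicle cells and 12 in proliferating cells. DESeq2 gave 11 for the inhibitor in proliferating cells, and library-size scaling 11 with ouabain, where 1655 of all 18696 genes were called. For the other fits the shares of all genes called are not set beside these counts. Whether the changed counts are particular to the members therefore cannot be read from them. The causes were not tested.

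Without any 1 library, called members ranged over 30 to 32, 30 to 33 and 32 to 33 in senescent against proliferating cells, 19 to 23, 24 to 29 and 27 to 29 with ouabain, 25 to 27, 26 to 27 and 26 to 27 with digoxin, and 2 to 2, 2 to 7 and 1 to 6 between the drugs. For the inhibitor they ranged over 2 to 6 with ouabain, 1 to 2 with digoxin, 2 to 7 in senescent vehicle cells and 0 to 4 in proliferating cells, and for the differences between times over 18 to 20 with ouabain and 18 to 19 with digoxin. Depth limits PDK3, ANKRD37, PDK4, EGLN3 and CA9.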
